A study of Homo sapiens with 9 samples.

Results

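The replication-dependent histone genes were followed in a human lymphoma B-cell line before and after growth in mouse bone marrow. Members were the protein-coding genes whose GENCODE release 29 symbol starts with HIST1H, HIST2H or HIST3H and that had at least 30 counts summed over the 9 libraries. Of 70 such symbols among 58243 gene identifiers, 40 were members: 4 linker histone H1 genes, 10 H2A, 14 H2B, 7 H3 and 5 H4 genes. The HIST1 cluster on chromosome 6 held 35 of them, the HIST2 cluster on chromosome 1 held 5, and no HIST3H symbol reached the minimum. The rule used the sum over all libraries and no difference between groups. Most libraries were from femur, however, so a gene with few counts could reach the minimum through the femur groups. HIST1H4D had 4 counts summed over the day 0 libraries, 9 over day 19 and 22 over day 40, and HIST1H2BI had 4, 17 and 13. Just inside the minimum were HIST1H2BI with 34 counts, HIST1H4D with 35 and HIST1H4B with 49, and just outside were HIST1H4C with 28 and HIST1H2BB and HIST1H3C with 25 each. Of the 30 symbols below the minimum, 11 had 0 counts in all 9 libraries.

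The cells were DOHH2, an established line from a human follicular lymphoma that had transformed, sampled in 3 groups of 3 libraries. Day 0 was cultured DOHH2, nominally from the time of grafting. Day 19 and day 40 were DOHH2 recovered after that many days from femurs of grafted RAGγc mice, which lack mature lymphocytes but keep myeloid and stromal cells, by flushing, enzymatic digestion, bead depletion of mouse blood cells and a sort for human CD20. The femur groups therefore differ from the cultured cells in host, time and handling, which cannot be told apart here. By the dates in the sample names, each sampling period had its own culture library. It preceded the day 40 libraries by 11, 26 and 39 days and the day 19 libraries by 18, 19 and 19 days. If these are sampling dates, the cultures at 11 and 26 days were taken after the day 40 mice of their periods were grafted. They are then not the day 0 of those grafts, which limits the comparison of day 40 with day 0 and any pairing by period. The labels do not say whether the libraries of a group came from separate mice or cultures, so p-values measure only the spread between these libraries.

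Replication-dependent histones supply the core particle of the nucleosome (H2A, H2B, H3 and H4) and the linker (H1) for chromatin made in S phase. Their genes lie in clusters, often as divergent H2A and H2B pairs, and are transcribed at the histone locus body around the coactivator NPAT. Most of their mRNAs have no introns and no poly(A) tail: they end just after a conserved stem-loop that is bound by SLBP and cut with the help of the U7 snRNP, and they are degraded when replication stops. Some members also make transcripts with a poly(A) tail. A library that selects poly(A) RNA therefore sees only part of histone mRNA. The library kit is not given in the sources used here, so the values below are reads assigned to histone genes and not total histone mRNA.

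The stem-loop is shown for members whose values are described below, because it is the element that separates these mRNAs from others. The motif searched was GG, any 2 bases, CTT, any base, T, any base, AG, any 2 bases, CC, on the transcript strand only. It was in 18 of the 40 members, or 18 of the 21 whose GENCODE 29 models extend beyond the coding sequence. The other 19 members have models of coding sequence only, in which the stem-loop cannot appear. Of 19684 protein-coding genes, 110 held it (0.559%). Each line gives the stem-loop in capitals with 5 bases on either side, from GENCODE 29 transcripts on GRCh38.
HIST1H2AC, chr6:26124664-26124689, plus strand: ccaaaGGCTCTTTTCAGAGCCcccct
HIST1H2AG, chr6:27133510-27133535, plus strand: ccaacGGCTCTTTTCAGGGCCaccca
HIST1H2BF, chr6:26199963-26199988, plus strand: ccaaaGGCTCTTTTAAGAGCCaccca
HIST1H2BG, chr6:26216213-26216238, minus strand: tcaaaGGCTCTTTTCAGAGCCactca
HIST2H2BE, chr1:149886183-149886208, minus strand: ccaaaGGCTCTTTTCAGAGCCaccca
HIST1H3G, chr6:26270918-26270943, minus strand: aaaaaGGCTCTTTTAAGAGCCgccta
HIST1H3H, chr6:27810511-27810536, plus strand: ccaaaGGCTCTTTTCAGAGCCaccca
HIST1H4I, chr6:27139649-27139674, plus strand: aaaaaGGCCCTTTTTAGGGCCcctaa
The longest models of HIST1H2AC, HIST1H2AG and HIST2H2BE run on for 1128, 1761 and 1729 bases past the stem-loop and hold a poly(A) signal (AATAAA or ATTAAA) in their last 50 bases. Such a signal was found in 12 members, 11 of which also held the stem-loop.

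Histone cluster genes took a very small share of the reads. The 40 members together held 568, 934 and 748 counts in the 3 culture libraries, 984, 937 and 1100 at day 19 and 1350, 1391 and 989 at day 40, in libraries of 21071239 to 29456271 counts. Between 5 and 27 of the 40 members had fewer than 10 counts in a library, so single members were measured coarsely, and 8 members had too few counts to be tested. As CPM, which are counts divided by library sizes scaled with the TMM method, the members summed to 24.1, 42.5 and 28.99 at day 0, to 43.3, 43.6 and 46.5 at day 19 and to 48.9, 46.6 and 40.5 at day 40. The day 19 mean was 44.5 ± 1.77 CPM and the day 0 mean 31.9 ± 9.55 CPM (SD, n = 3 each), a ratio of 1.40. The day 40 mean was 45.4 ± 4.34 CPM, 1.42 times the day 0 mean. All 3 day 19 libraries lay above all culture libraries, but day 40 library 3 lay below culture library 2. Culture library 2 stood apart from the other culture libraries, whose mean without it was 26.5 CPM. RNA was pooled over cells, so fewer cells with histone mRNA and less histone mRNA per cell cannot be told apart.

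**Figure D1:**
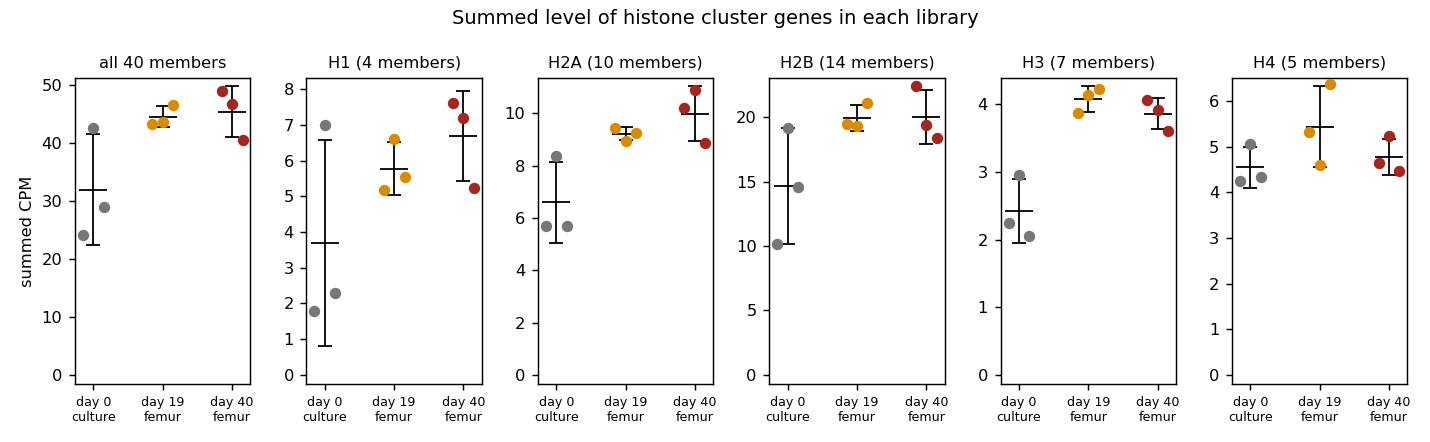
Summed CPM of all 40 members and of each histone class in each library (points), with mean ± SD of 3 libraries, in culture at day 0 and in femur cells at day 19 and day 40. Culture library 2, at 42.5 CPM, is the highest culture point for the sum of all members and lies near the femur libraries.

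At day 19 against day 0, 10 of the 32 tested members rose and 0 fell at an adjusted p under 0.05 (edgeR quasi-likelihood test, Benjamini-Hochberg over 15163 genes). Over all genes tested, 26.3% were called higher and 26.5% lower, so the share of members called higher (31.25%) was near the background, while 0 members were called lower. The median log2 fold change of tested members was 0.78, against 0.01 over all genes. At day 40 against day 0, 11 of 32 rose and 0 fell, where 23.3% of all genes were called higher and 23.3% lower, and the median was 0.94 against 0.01 over all genes. Both comparisons use the same culture libraries. Members with few counts could pass the minimum and the filter through the femur libraries in which they were high. The medians and the lack of members called lower carry that limit. Called at both days were HIST1H1D, HIST1H2AC, HIST1H2BF, HIST1H2BG, HIST2H2BE and HIST2H3D. HIST1H2AL, HIST1H2BE, HIST1H2BO and HIST1H3H passed at day 19 only, and HIST1H2AE, HIST1H2AH, HIST1H2BM, HIST1H3G and HIST2H2BF at day 40 only; whether these differ between days is given by the comparison of day 40 with day 19, in which none of them passed.

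With no filter on low counts, all 40 members could be fitted. The estimate was positive for 35 and negative for 5 at each day. The minimum on summed counts still applied, so this split also favours genes that are high in femur. At day 19, 10 were called higher and 0 lower, beside 13.5% and 13.7% of 30854 genes. At day 40, 16 were called higher, beside 12.3% of genes, and 1 lower, beside 12.1%; the lower one was HIST1H2BK. All 6 femur libraries lay above all 3 culture libraries in 10 of the 40 members and below them in 0, beside 23.2% and 24.4% of all genes tested. The 10 include HIST1H3I, which was not tested, whereas the shares cover tested genes only.

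Many calls changed when a single library was left out. Such a fit has fewer libraries for every gene, and the share of all genes called in it is not given here. Without culture library 2, 15 members were called higher at day 19 and 18 at day 40. Without culture library 1 these counts were 5 and 6, with HIST1H2BK called lower at day 40. Without day 19 library 1 or without day 19 library 2 the day 19 count was 5, and without day 40 library 1 the day 40 count was 7. Fitted on the day 19 and culture libraries alone, 21 members could be tested and 5 rose.

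**Figure D2:**
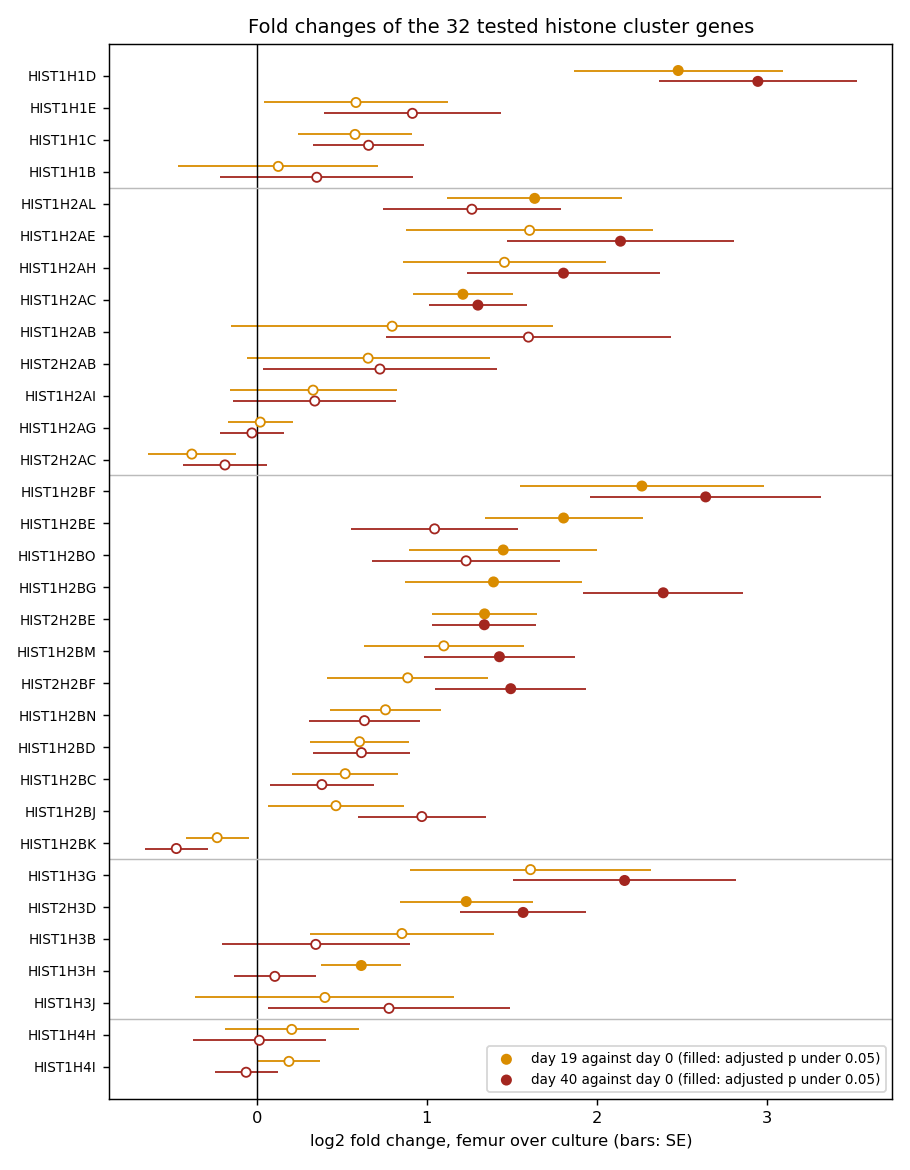
Log2 fold change (points) with its SE (bars) of the 32 tested members, day 19 over day 0 and day 40 over day 0, in blocks from H1 at the top to H4 at the bottom. Filled points passed an adjusted p of 0.05; most points lie right of 0, and HIST1H2BK and HIST2H2AC lie left of it at both days.

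Among the 4 linker histone genes, all of them tested, HIST1H1D rose at both days and the other 3 passed at neither. In the fit with no filter, HIST1H1C and HIST1H1E were also called higher at day 40 (adjusted p = 0.0459 and 0.0359). HIST1H1D (chr6, minus strand, a model of coding sequence only) encodes a replication-dependent H1 subtype. It had 2, 8 and 1 counts in culture, 21, 27 and 12 at day 19 and 43, 40 and 19 at day 40. Every femur library lay above every culture library. In CPM it averaged 0.896 ± 0.376 at day 19 against 0.163 ± 0.176 at day 0, a log2 fold change of 2.48 ± 0.61 (SE; adjusted p = 0.00474). At day 40 it averaged 1.23 ± 0.402 CPM, with a log2 fold change of 2.95 ± 0.58 over day 0 (adjusted p = 0.00145). These were the largest estimates of the 32 tested members at each day.

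HIST1H1C, the most abundant H1 gene, had 1.23, 3.28 and 1.36 CPM in culture, 2.24, 2.79 and 3.64 CPM at day 19 and 3.08, 3.22 and 2.87 CPM at day 40. Culture library 2 overlapped the femur libraries. The log2 fold changes were 0.58 ± 0.33 at day 19 (adjusted p = 0.163) and 0.66 ± 0.33 at day 40 (adjusted p = 0.120). HIST1H1E had 0.297, 1.59 and 0.349 CPM at day 0, 1.06, 1.40 and 0.845 CPM at day 19 and 1.85, 1.41 and 0.860 CPM at day 40. HIST1H1B had 0.170, 1.78 and 0.543 CPM at day 0, 0.967, 1.16 and 0.550 CPM at day 19 and 1.12, 1.24 and 0.738 CPM at day 40. For both, culture library 2 was above at least 5 of the 6 femur libraries and the other culture libraries were below all of them. Neither gene passed, with log2 fold changes at days 19 and 40 of 0.58 ± 0.54 and 0.92 ± 0.52 for HIST1H1E and 0.13 ± 0.59 and 0.35 ± 0.57 for HIST1H1B. Summed H1 was 1.78, 7.01 and 2.29 CPM in culture, and the class took 16.5% of member counts in culture library 2 against 7.39% and 7.89% in the other culture libraries. In the femur libraries H1 took 11.9% to 15.6%.

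The 10 H2A genes averaged together 9.22 ± 0.259 CPM at day 19 and 9.99 ± 1.04 CPM at day 40, against 6.59 ± 1.55 CPM at day 0. Of the 9 tested, 2 rose at day 19 and 3 at day 40, with median log2 fold changes of 0.80 and 1.26. Among all genes tested, 26.3% were called higher at day 19 and 23.3% at day 40. HIST1H2AC, whose longest model runs past its stem-loop to a poly(A) signal, had 0.891, 1.91 and 1.16 CPM in culture, 2.59, 2.61 and 3.93 CPM at day 19 and 3.66, 3.39 and 2.66 CPM at day 40. All femur libraries were above all culture libraries. Its log2 fold change was 1.21 ± 0.29 at day 19 (adjusted p = 0.00401) and 1.30 ± 0.29 at day 40 (adjusted p = 0.00300). HIST1H2AG and HIST2H2AC, next in level, did not pass at either day. HIST1H2AG had 2.08, 1.96 and 2.09 CPM at day 0, 2.15, 1.86 and 2.20 CPM at day 19 and 1.99, 2.01 and 2.01 CPM at day 40, and its log2 fold changes were 0.02 ± 0.19 and -0.03 ± 0.19. HIST2H2AC had 1.78, 1.91 and 1.47 CPM at day 0, 1.14, 1.72 and 1.10 CPM at day 19 and 1.30, 1.78 and 1.43 CPM at day 40, with log2 fold changes of -0.38 ± 0.26 (adjusted p = 0.230) and -0.19 ± 0.25 (adjusted p = 0.562). In both genes the groups overlapped.

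The other H2A genes had lower levels. HIST1H2AL had 2, 5 and 5 counts at day 0, 12, 16 and 8 at day 19 and 9, 18 and 7 at day 40, and rose at day 19 by 1.63 ± 0.52 (adjusted p = 0.0182). Its femur libraries were all above its culture libraries at both days, but the day 40 difference of 1.26 ± 0.52 did not pass (adjusted p = 0.0645). HIST1H2AE had 0, 4 and 3 counts at day 0, 12, 4 and 5 at day 19 and 15, 14 and 8 at day 40, and rose at day 40 by 2.14 ± 0.67 (adjusted p = 0.0197). HIST1H2AH rose at day 40 by 1.80 ± 0.57 (adjusted p = 0.0203), with 26, 29 and 15 counts at day 40 against 1, 10 and 6 at day 0. Calls of these 3 genes were lost without single libraries. That of HIST1H2AL ended without culture library 1 or day 19 library 2, with adjusted p of 0.0708 and 0.0815 (0.0117 to 0.0815 over all settings). That of HIST1H2AE ended without culture library 1 or day 40 library 1, with adjusted p of 0.0593 and 0.0597 (0.00533 to 0.0597). That of HIST1H2AH ended without culture library 1 or 3 or day 40 library 1 or 2, with adjusted p of 0.0535 to 0.0688 (lowest over all settings 0.000614). HIST1H2AB, HIST2H2AB and HIST1H2AI did not pass at either day, and HIST1H2AJ was not tested. Reads of HIST1H2AI and HIST1H2AJ are uncertain, because only 37.7% and 16.3% of the 50-base windows in their transcripts were found in no other gene.

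H2B was the class with the most counts, 41.6% to 50.4% of the members' counts in each library. Of 12 tested H2B genes, 5 rose at each day, with median log2 fold changes of 0.99 and 1.14. The shares of all genes called higher were 26.3% at day 19 and 23.3% at day 40, and the class as a whole was not tested. HIST2H2BE, a HIST2 gene on chromosome 1 with both a stem-loop and a distal poly(A) signal, had 0.721, 1.78 and 0.853 CPM in culture, 2.29, 2.61 and 3.51 CPM at day 19 and 2.72, 2.78 and 2.91 CPM at day 40. All femur libraries exceeded all culture libraries. It rose by 1.34 ± 0.31 at day 19 (adjusted p = 0.00311) and by 1.34 ± 0.31 at day 40 (adjusted p = 0.00366). HIST1H2BG had 0.255, 0.410 and 0.0388 CPM at day 0, 0.616, 0.512 and 0.676 CPM at day 19 and 1.52, 1.04 and 1.07 CPM at day 40, so the 3 groups did not overlap. Its log2 fold change was 1.39 ± 0.52 at day 19 (adjusted p = 0.0390) and 2.39 ± 0.47 at day 40 (adjusted p = 0.00140). HIST1H2BF had 4, 4 and 0 counts at day 0, 15, 14 and 9 at day 19 and 34, 16 and 10 at day 40, and rose by 2.26 ± 0.72 (adjusted p = 0.0183) and 2.64 ± 0.68 (adjusted p = 0.00711). HIST1H2BE rose at day 19 by 1.80 ± 0.46 (adjusted p = 0.00601), with 10, 11 and 13 counts at day 19 against 5, 1 and 4 at day 0.

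The most abundant member of all did not rise. HIST1H2BK had 5.86, 9.56 and 7.56 CPM in culture, 6.20, 5.87 and 7.44 CPM at day 19 and 5.91, 4.86 and 5.78 CPM at day 40. The groups overlapped at both days. Its log2 fold change was -0.23 ± 0.19 at day 19 (adjusted p = 0.309) and -0.47 ± 0.19 at day 40 (adjusted p = 0.0529). The day 40 value was called lower by DESeq2 (adjusted p = 0.0397), with no filter (adjusted p = 0.0245) and without culture library 1 (adjusted p = 0.0159), and its adjusted p reached 0.188 without culture library 2. HIST1H2BK held 22.5% to 26.1% of member counts in the culture libraries, 13.4% to 16.0% at day 19 and 10.4% to 14.3% at day 40. Only 25.9% of its 50-base windows were unique, the rest being shared mainly with the gene H2BFS. HIST1H2BD had 1.10, 2.82 and 1.59 CPM at day 0, 3.03, 2.47 and 2.83 CPM at day 19 and 3.08, 2.82 and 2.50 CPM at day 40, and its log2 fold changes of 0.60 ± 0.29 (adjusted p = 0.0969) and 0.62 ± 0.29 (adjusted p = 0.0957) did not pass.

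**Figure D3:**
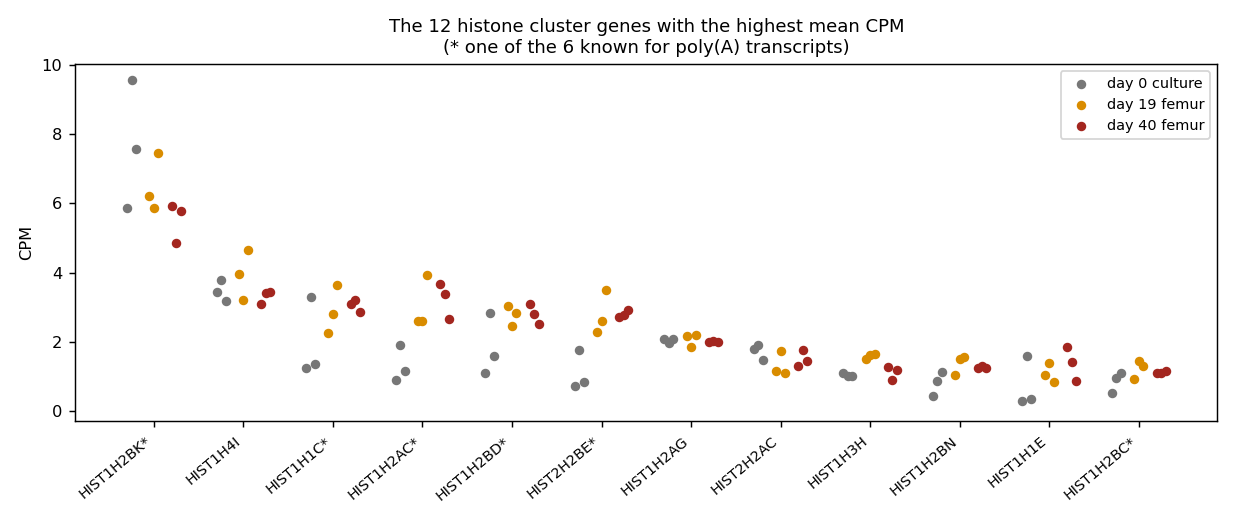
CPM of the 12 members with the highest mean CPM, a point per library, for culture at day 0 and femur cells at day 19 and day 40. HIST1H2BK is highest at every time, and HIST1H2AC and HIST2H2BE are 2 genes in which the femur points lie above all culture points.

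Calls of several H2B genes were also lost when single libraries were left out. At day 19 HIST1H2BF missed the threshold without day 19 library 1 or 2 or culture library 3, with adjusted p of 0.0523 to 0.0543 (lowest over all settings 0.000548). HIST1H2BG missed it at day 19 without any 1 of the day 19 libraries or of culture libraries 1 and 3, with adjusted p of 0.0583 to 0.118 (lowest 0.0113), and when only the 2 compared groups were fitted (0.0505). HIST1H2BO, called at day 19 with 16, 20 and 8 counts against 3, 2 and 12 at day 0 (1.45 ± 0.55, adjusted p = 0.0429), missed it in 10 of 17 alternatives, with adjusted p up to 0.165. At day 40 HIST2H2BF (1.49 ± 0.45, adjusted p = 0.0159) missed it without culture library 1 or day 40 library 1, with adjusted p of 0.0524 and 0.0771 (lowest 0.000327). HIST1H2BM (1.43 ± 0.45, adjusted p = 0.0199) missed it without culture library 1 or day 40 library 2, with adjusted p of 0.0757 and 0.0646 (lowest 0.0125). HIST1H1D, HIST1H2AC and HIST2H2BE passed under all 17 alternatives at both days, as did HIST1H2BE at day 19 and HIST1H2BF, HIST1H2BG and HIST2H3D at day 40.

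Of the 5 tested H3 genes, 2 rose at each day, beside 26.3% of all genes at day 19 and 23.3% at day 40. The 7 H3 members summed to 4.08 ± 0.187 CPM at day 19 and 3.86 ± 0.232 CPM at day 40, against 2.42 ± 0.477 CPM at day 0, and all femur libraries, at 3.61 CPM or more, lay above the highest culture library at 2.96 CPM. HIST2H3D (chromosome 1, a replication-dependent H3 gene of the HIST2 cluster) had 4, 6 and 5 counts in culture, 14, 11 and 9 at day 19 and 18, 20 and 14 at day 40. The culture libraries were all below the femur libraries. It rose by 1.23 ± 0.39 at day 19 (adjusted p = 0.0186) and 1.57 ± 0.37 at day 40 (adjusted p = 0.00439). The day 19 call was lost without culture library 1 (adjusted p = 0.0640), culture library 3 (0.0588) or day 19 library 1 (0.0760), and also with DESeq2 (0.0755) and with no filter (0.0711), and the lowest adjusted p over all settings was 0.0132. Only 19.6% of its windows were unique, so part of its reads may belong to other HIST2 H3 copies. HIST1H3H, the most abundant H3 gene, had 1.10, 1.002 and 1.01 CPM at day 0, 1.49, 1.63 and 1.65 CPM at day 19 and 1.27, 0.905 and 1.19 CPM at day 40. It was higher at day 19 by 0.61 ± 0.24 (adjusted p = 0.0439) but not at day 40 (0.11 ± 0.24, adjusted p = 0.738). Its day 19 call missed the threshold in 11 of 17 alternatives, among them the removal of any 1 culture or day 19 library, with adjusted p up to 0.176. HIST1H3G had 1, 7 and 1 counts at day 0, 5, 12 and 10 at day 19 and 24, 12 and 12 at day 40, and rose at day 40 by 2.16 ± 0.65 (adjusted p = 0.0170). That call missed the threshold without culture library 1 or 3 (0.0669 each) or day 40 library 1 (0.0736), and the lowest adjusted p over all settings was 0.00114. HIST1H3B had 7, 13 and 4 counts at day 0, 21, 10 and 11 at day 19 and 11, 20 and 5 at day 40 and did not pass.

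No H4 gene passed at either day in the 2 that could be tested. HIST1H4I, second in level among all members, had 3.44, 3.78 and 3.18 CPM at day 0, 3.96, 3.21 and 4.65 CPM at day 19 and 3.08, 3.42 and 3.44 CPM at day 40. Its groups overlapped, and its log2 fold changes were 0.19 ± 0.18 (adjusted p = 0.412) and -0.06 ± 0.18 (adjusted p = 0.800). HIST1H4H had 13, 14 and 22 counts at day 0, 16, 9 and 29 at day 19 and 18, 26 and 13 at day 40, with log2 fold changes of 0.21 ± 0.39 and 0.01 ± 0.39. HIST1H4A, the third by level, had 1, 5 and 4 counts at day 0, 9, 6 and 9 at day 19 and 11, 9 and 3 at day 40 and was not tested. Without the filter, HIST1H4D, with 9, 7 and 6 counts at day 40 against 3, 1 and 0 at day 0, was called higher at day 40 (adjusted p = 0.0460). Summed H4 was 5.44 ± 0.893 CPM at day 19 and 4.78 ± 0.401 CPM at day 40, against 4.55 ± 0.443 CPM at day 0. The ratios to day 0 were thus 1.20 and 1.05 for H4, where they were 1.56 and 1.81 for H1, 1.40 and 1.52 for H2A, 1.36 and 1.37 for H2B and 1.69 and 1.60 for H3. Culture library 2 lowered the ratios of every class. Without it they were 2.84 and 3.29 for H1, 1.62 and 1.75 for H2A and 1.61 and 1.62 for H2B. For H3 they were 1.90 and 1.79 and for H4 1.27 and 1.11, so the day 19 ratio of H3 was then below that of H1. No test was made between the classes.

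Between the femur groups no tested member passed, while the log2 fold changes of single members ran from -0.76 (HIST1H2BE) to 0.998 (HIST1H2BG). At day 40 against day 19, 0 of 32 tested members were called higher and 0 lower by edgeR, beside 3.23% and 1.45% of all genes, and DESeq2 and limma voom also called 0. At an unadjusted p under 0.05 there were 2 members, where 16.7% of all genes met that threshold. These were HIST1H2BG, with a log2 fold change of 0.998 (adjusted p = 0.226), and HIST1H3H, with -0.51 (adjusted p = 0.290). The median log2 fold change was 0.08.

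Levels between genes were compared per kilobase of exon in the gene model. HIST1H2BK was highest at 17.2 CPM per kb over all libraries, followed by HIST1H1C at 4.10, HIST2H2AC at 3.89, HIST1H2BD at 2.84 and HIST1H4I at 2.76 CPM per kb. HIST2H2BE, sixth by CPM, was at 1.02 CPM per kb. Models of coding sequence only, such as those of HIST1H2BK, HIST1H1C and HIST2H2AC, hold no untranslated bases, so these values depend on how far each model reaches.

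Transcripts with a poly(A) tail are known from some cells for 6 members: HIST1H1C, HIST1H2AC, HIST1H2BC, HIST1H2BD, HIST1H2BK and HIST2H2BE. They held 39.0% to 48.7% of member counts in every library. Of these 6, 2 rose at each day (HIST1H2AC and HIST2H2BE), with median log2 fold changes of 0.59 and 0.64. Of the 26 other tested members 8 rose at day 19 and 9 at day 40, with medians of 0.82 and 1.01. Beside these counts, 26.3% of all genes tested were called higher at day 19 and 23.3% at day 40. Outside the histones, 25 RNAs known to lack a poly(A) tail were looked up, among them RN7SK, RMRP, RN7SL1 and RNU7-1, the RNA of the U7 snRNP. These 4 and RPPH1, SCARNA2, VTRNA1-1 and RNU2-2P were listed at 0 in all libraries. The 25 summed to 6.37 to 12.7 CPM at day 0, 9.63 to 12.3 CPM at day 19 and 9.63 to 10.8 CPM at day 40. Of the 4 that were tested, RN7SL2 fell at day 19 and none rose. The part of poly(A) selection in the histone values was not tested.

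Position within the clusters went with the size of the change, as a description with no test. The 19 HIST1 members between positions 26020490 and 26285638 of chromosome 6 (GRCh38) summed to 17.1 ± 0.878 CPM at day 19 and 18.8 ± 3.07 CPM at day 40, against 9.45 ± 4.48 CPM at day 0, ratios of 1.81 and 1.99. The 16 HIST1 members between positions 27125897 and 27893843 summed to 21.4 ± 0.779 and 19.8 ± 0.991 CPM, against 18.6 ± 3.87 CPM at day 0, ratios of 1.15 and 1.06. Culture library 2 was the highest culture library in both stretches, at 14.5 and 22.7 CPM. The second stretch includes HIST1H2BK and HIST1H4I, the most abundant members. Members called higher numbered 5 of 14 tested at day 19 and 6 at day 40 in the first stretch, and 3 of 13 and 2 in the second. The share of all genes tested that was called higher was 26.3% at day 19 and 23.3% at day 40. The median log2 fold changes were 1.03 and 1.17 in the first and 0.47 and 0.63 in the second. The 5 HIST2 members summed to 5.90 ± 0.209 and 6.73 ± 0.375 CPM at day 19 and day 40, against 3.79 ± 1.30 CPM at day 0.

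Values were also set side by side for divergent neighbours. In 8 head-to-head pairs both genes were members, with starts 219 to 357 bases apart, and 5 of these were H2A and H2B pairs with both genes tested. HIST2H2BE rose at both days, while HIST2H2AC, whose start lies 323 bases away on the other strand, had negative estimates that did not pass. The log2 ratio of HIST2H2BE to HIST2H2AC counts was -1.28, -0.11 and -0.77 in culture, 0.99, 0.59 and 1.66 at day 19 and 1.05, 0.64 and 1.01 at day 40, so all femur libraries were above 0 and all culture libraries below it. HIST2H2AC shares windows with the HIST2H2AA3 and HIST2H2AA4 copies (69.5% unique). For HIST1H2BK and HIST1H2AH, 331 bases apart, the H2B gene had -0.23 and -0.47 and the H2A gene 1.46 and 1.80. HIST1H2AC rose at both days, and HIST1H2BC, 219 bases away, had 0.52 and 0.38 and did not pass. The estimates of HIST1H2BG and HIST1H2AE were alike in sign, at 1.39 and 1.60 at day 19 and 2.39 and 2.14 at day 40, and for HIST1H2BJ and HIST1H2AG neither gene passed. With a block for sampling period, HIST1H2BJ passed at day 40 (0.91, adjusted p = 0.0397; 0.97 and adjusted p = 0.0518 without it). Differences within pairs were not tested.

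**Figure D4:**
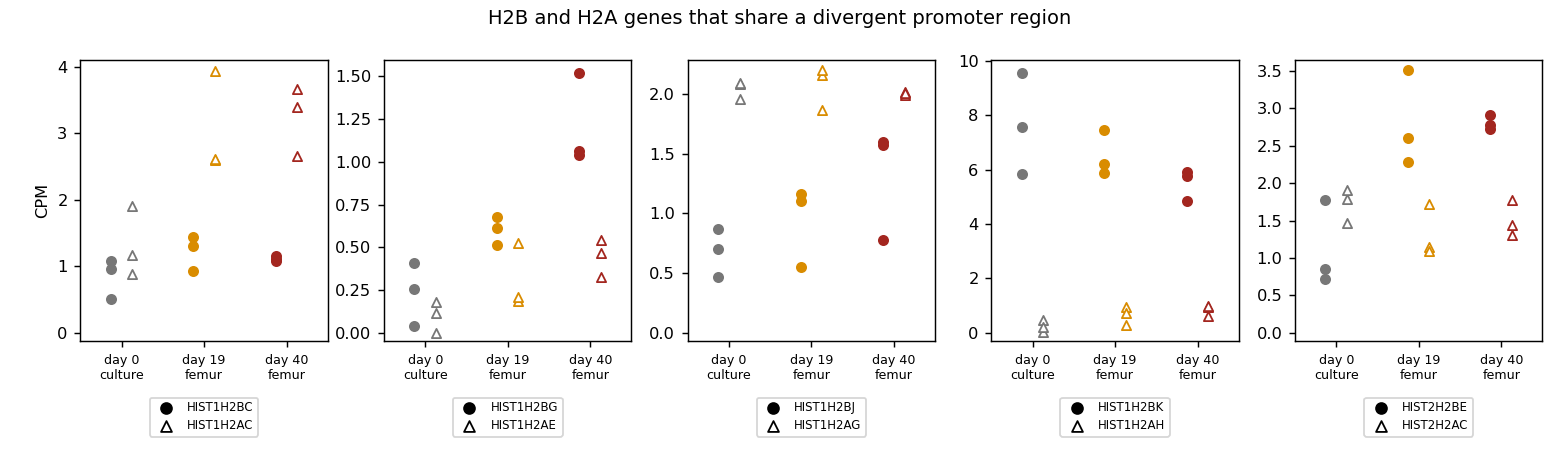
CPM in each library of the 5 divergent pairs in which both the H2B gene (filled circles) and the H2A gene (open triangles) were tested, at day 0, day 19 and day 40. In the HIST2 pair the H2B gene is below its H2A neighbour in culture and above it in all 6 femur libraries.

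Promoters are shown for the HIST2 pair, for HIST1H2BK, which did not rise, and for HIST1H1D, which had the largest fold changes. Each is the 150 bases before the RefSeq start (GRCh38.p14), with capitals marking the octamer ATTTGCAT, bound by POU2F1, the CCAAT box CCAAT and the TATA box TATAAA on either strand.
HIST2H2BE, chr1:149886683-149886832, minus strand: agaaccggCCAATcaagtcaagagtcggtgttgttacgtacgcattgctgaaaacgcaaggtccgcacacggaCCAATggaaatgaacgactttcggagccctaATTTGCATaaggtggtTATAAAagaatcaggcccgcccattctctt
HIST2H2AC, chr1:149886768-149886917, plus strand: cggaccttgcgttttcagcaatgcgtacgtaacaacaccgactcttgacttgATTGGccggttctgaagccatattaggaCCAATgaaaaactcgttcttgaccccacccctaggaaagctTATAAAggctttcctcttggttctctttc
HIST1H2BK, chr6:27146856-27147005, minus strand: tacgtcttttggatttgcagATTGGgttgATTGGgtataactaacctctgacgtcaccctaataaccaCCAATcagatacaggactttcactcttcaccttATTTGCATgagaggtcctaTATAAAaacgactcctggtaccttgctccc
HIST1H1D, chr6:26234988-26235137, minus strand: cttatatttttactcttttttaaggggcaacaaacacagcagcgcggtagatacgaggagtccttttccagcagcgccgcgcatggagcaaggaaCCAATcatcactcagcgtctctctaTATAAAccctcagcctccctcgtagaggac
The windows of HIST2H2BE and HIST2H2AC overlap. Of the 40 members, 35 had a RefSeq promoter, of which the 250 bases before the start were searched. The octamer was in 19 of them, 8 of 9 H2A and 11 of 14 H2B promoters and none of the H1, H3 and H4 promoters, beside 1.63% of all 35116 RefSeq promoters. The CCAAT box was in 32 of 35, beside 32.0% of all promoters, and TATAAA in 25 of 35, beside 10.7%. The octamer was present in HIST2H2BE, in HIST1H2BK and in HIST2H2AC. In HIST2H2AC it lies in the 250 bases searched but before the 150 shown. Those 250 bases reach the site printed for HIST2H2BE, so that site counts for both genes. Other divergent pairs can share a site in the same way. Of 17 tested members with the octamer, 7 rose at each day, and of 12 without it 3 rose at each day. Beside them, 26.3% of all genes tested were called higher at day 19 and 23.3% at day 40. Members with and without the octamer were not compared by a test.

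Genes of histone transcription and processing were measured at higher levels than the histones. POU2F1, which binds the octamer, rose to 112 to 124 CPM at day 19 and 102 to 111 CPM at day 40, against 59.7 to 88.3 CPM in culture (0.58 ± 0.12 and 0.44 ± 0.12; adjusted p = 0.00138 and 0.00957). Of 2 related genes outside the list, chosen after their values were seen, POU2AF1, the B-cell octamer coactivator, fell by 0.66 and 0.48 on the log2 scale (SE 0.07 and 0.06, adjusted p = 5.11e-06 and 0.000106), and POU2F2, another octamer factor and more abundant at a mean of 383 CPM, did not pass (-0.14 ± 0.06 and -0.01 ± 0.06). NPAT, the coactivator of the histone locus body, fell at day 19 by 0.29 on the log2 scale (SE 0.11, adjusted p = 0.0472), while the day 40 estimate of -0.21 ± 0.11 did not pass. CASP8AP2, another component of that body, rose by 0.35 ± 0.08 and 0.34 ± 0.08 (adjusted p = 0.00374 and 0.00516), and CRAMP1 by 1.08 ± 0.07 and 0.81 ± 0.07 (adjusted p = 1.78e-07 and 3.48e-06). E2F1 rose by 0.62 ± 0.08 and 0.34 ± 0.08 (adjusted p = 3.78e-05 and 0.00349), and CCNE2 did not pass. Of the 12 genes of histone locus body and transcription, 7 rose and 1 fell at day 19 and 5 rose and 0 fell at day 40, with medians of 0.25 and 0.14. Among all genes tested, 26.3% were called higher and 26.5% lower at day 19, and 23.3% each at day 40.

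In the machinery that forms and degrades histone mRNA ends, more genes fell than rose. Of 23 genes, 4 rose and 12 fell at day 19, and 3 rose and 10 fell at day 40, with medians of -0.23 and -0.18. Over all genes tested, 26.3% were called higher and 26.5% lower at day 19, and 23.3% each at day 40. SLBP, which binds the stem-loop, had 192, 184 and 174 CPM at day 19 and 201, 186 and 177 CPM at day 40, against 224, 239 and 217 CPM at day 0. It fell by 0.30 and 0.27 on the log2 scale (SE 0.07 each, adjusted p = 0.00293 and 0.00716). LSM10, a U7 snRNP protein, had 38.6, 35.8 and 36.6 CPM at day 19 and 48.0, 52.8 and 51.8 CPM at day 40, against 92.5, 117 and 83.7 CPM at day 0. It fell by 1.40 and 0.94 (SE 0.11 and 0.10, adjusted p = 5.12e-07 and 2.09e-05) and was the single gene of the list that differed between femur groups, higher at day 40 than at day 19 by 0.46 ± 0.11 (adjusted p = 0.0273). Its partner LSM11 rose by 0.47 ± 0.10 and 0.58 ± 0.10 (adjusted p = 0.00196 and 0.000608). ZNF473, another factor of U7-dependent processing, rose at day 40 by 0.39 ± 0.12 (adjusted p = 0.0159). ERI1, the exonuclease that trims and degrades stem-loop ends, fell by 0.31 and 0.28 (SE 0.08 each, adjusted p = 0.00593 and 0.0115). SNRPE and SNRPG, Sm proteins shared with other snRNPs, fell at both days.

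The replication-independent histones moved in both directions. Of 10 tested, 5 rose and 3 fell at day 19 and 3 rose and 3 fell at day 40. For all genes tested these shares were 26.3% and 26.5% at day 19 and 23.3% each at day 40. H1FX, a linker histone made throughout the cell cycle, had 223, 304 and 324 CPM at day 19 and 165, 268 and 234 CPM at day 40, against 105, 185 and 87.6 CPM at day 0, and rose by 1.17 ± 0.25 (adjusted p = 0.00180) and 0.82 ± 0.25 (adjusted p = 0.0169). H2AFX, the H2A variant phosphorylated at DNA breaks, rose by 0.45 ± 0.07 and 0.28 ± 0.07 (adjusted p = 0.000195 and 0.00669). H2AFZ and H2AFV, the H2A.Z genes, fell by 0.22 and 0.24 at day 19 (SE 0.07 and 0.06, adjusted p = 0.0142 and 0.00328) and by 0.31 and 0.29 at day 40 (adjusted p = 0.00281 and 0.00112). H2AFJ rose at day 19 by 0.58 ± 0.22 (adjusted p = 0.0372) and did not pass at day 40. H3F3A and H3F3B, which encode replication-independent H3, did not pass at either day. H3F3C had 0.352, 0.698 and 0.338 CPM at day 19 and 0.580, 0.402 and 0.492 CPM at day 40, against 0, 0.0455 and 0.0775 CPM at day 0.

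**Figure D5:**
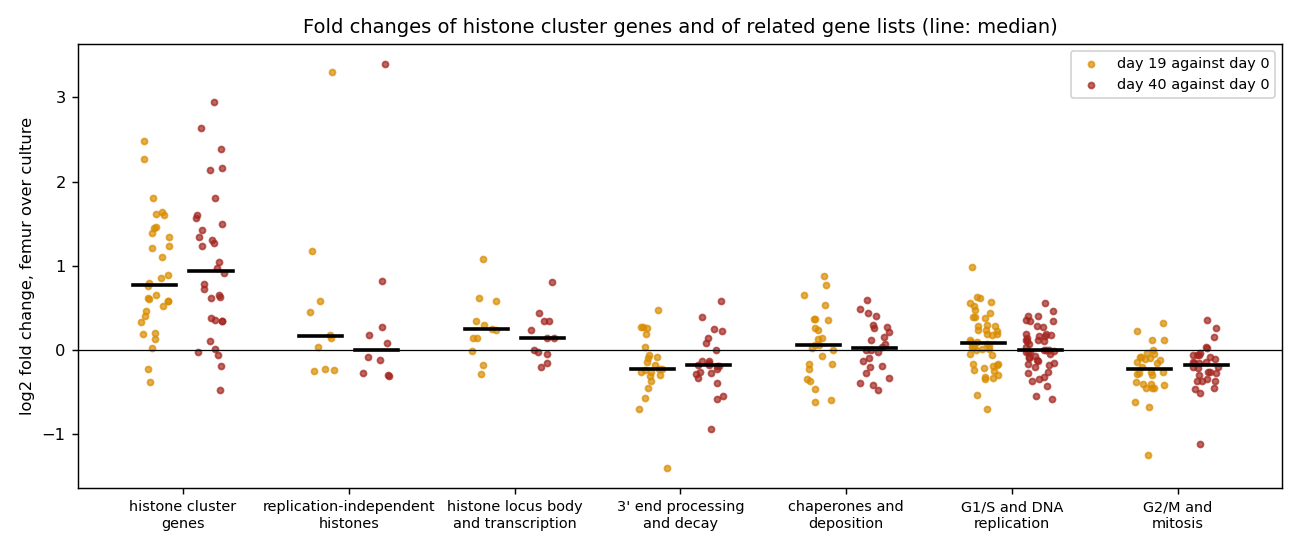
Log2 fold changes of the tested histone cluster genes and of 6 related gene lists, day 19 over day 0 and day 40 over day 0, a point per gene with the median as a line. The histone cluster genes have medians of 0.78 and 0.94, and the medians of the other lists lie between -0.23 and 0.25.

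Genes of S phase and of histone deposition were split. The counts that follow stand beside 26.3% of all genes called higher and 26.5% lower at day 19, and 23.3% each at day 40. Of 46 genes of the G1/S transition and DNA replication, 19 rose and 12 fell at day 19 and 12 rose and 11 fell at day 40, with medians of 0.08 and -0.00. PCNA, the replication clamp, did not pass at either day (0.12 ± 0.07 and -0.00 ± 0.07), while UHRF1, LIG1 and DTL rose at both, UHRF1 by 0.98 ± 0.07 and 0.55 ± 0.07. RPA3 fell at both days. At day 40 against day 19, UHRF1, LIG1, TYMS and UNG were lower and no gene of the list was higher. Of 30 genes of G2/M and mitosis, 1 rose (PRC1) and 16 fell at day 19 and 1 rose (PRC1) and 15 fell at day 40, HMMR by 1.25 and 1.11 (SE 0.11 each) and CDK1 by 0.68 and 0.46 (SE 0.08 each). MKI67 did not pass at either day. Of 24 chaperone and deposition genes, 9 rose and 7 fell at day 19 and 7 rose and 7 fell at day 40: NASP, which holds the pool of soluble H3 and H4, rose by 0.54 ± 0.07 and 0.43 ± 0.07, CHAF1A, a subunit of the replication-coupled assembly factor, by 0.37 ± 0.07 and 0.26 ± 0.07, and HAT1, which acetylates new H4, fell by 0.46 and 0.42 (SE 0.08 each). CHAF1B rose at day 19 only, by 0.23 ± 0.06, and ASF1B passed at neither day.

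The sorted cells carried defining B-cell markers, with MS4A1, CD79A, CD79B, PAX5, PTPRC, CD22 and EBF1 detected, but their levels moved with the groups. These 7 summed to 2599 to 2830 CPM at day 19 and 3015 to 3266 CPM at day 40, against 3911 to 4936 CPM at day 0. At both days PAX5 and EBF1 rose and the other 5 fell, among them MS4A1, which encodes the CD20 used in the sort, by 1.38 and 0.77 (SE 0.13 each), and CD22 by 2.24 and 1.19 (SE 0.10 each). COL1A2, COL3A1, CXCL12, LUM, POSTN, CDH5, EMCN, ERG, KDR, TEK, HBA2, HBB, S100A8, S100A9 and CD2 were at 0 in all 9 libraries. The 10 stromal markers summed to 5.01 to 7.59 CPM at day 19 and 4.43 to 5.43 CPM at day 40, against 1.24 to 1.73 CPM at day 0, PDGFRB being the one that rose of 2 tested. The 8 endothelial markers summed to 1.90 to 3.52 CPM at day 19 and 3.52 to 4.71 CPM at day 40, against 4.53 to 7.83 CPM at day 0, and PECAM1, the one tested, fell at day 19. The 6 T-cell markers summed to 6.52 to 7.82 CPM at day 19 and 15.3 to 17.99 CPM at day 40, against 21.9 to 28.9 CPM at day 0, and both tested, TRAC and CD3E, fell at both days. The 8 myeloid markers summed to 4.98 to 6.29 CPM at day 19 and 2.87 to 5.69 CPM at day 40, against 2.63 to 5.00 CPM at day 0. Mitochondrially encoded genes took 7.54% to 8.67% of counts at day 19 and 7.83% to 8.51% at day 40, against 4.83% to 6.07% at day 0. The part of these in the histone values was not tested.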

How the data were processed

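The deposited values are whole-number read counts per gene for 9 libraries; the submitters' processing notes name FastQC 0.11.5, STAR 2.5.2a, featureCounts 1.4.6, DESeq2 1.40.1 and hg38, without their roles. Not given in the sources used here are the library kit, the strand setting, the annotation, and what was done with multi-mapping and mouse reads. As strand is not stated, these overlapping genes may share reads: HIST1H2BN with HIST1H2AL, HIST1H2BD and HIST1H2BE with AL353759.1, HIST2H2BF with FCGR1A, HIST2H2AB with BOLA1, and HIST1H3J with HIST1H2AM.

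Symbols and positions came from GENCODE 29, which named 57980 identifiers. The test was run with edgeR 4.0.16 under R 4.3.3 (filterByExpr, 15163 genes; TMM; quasi-likelihood F-test, two-sided, a coefficient per group, all 9 libraries) and Benjamini-Hochberg adjustment; every adjusted p is from this test unless another tool is named. SE is the absolute log2 fold change divided by the square root of F. CPM use TMM-scaled sizes. The fit was tested on simulated data. Libraries held 21071239 to 29456271 counts; a count of 0 allows up to 3 counts, and this limit covers counting error only. Alternatives were other scalings, no filter, DESeq2 1.42.0, limma voom 3.58.1, the compared groups alone, a block for sampling period, near-identical copies summed, and each library left out.

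Libraries of the same sampling period deviated from their group means with correlations of -0.06 to 0.15 between day 19 and day 0, 0.11 to 0.23 between day 40 and day 0 and 0.14 to 0.34 between day 40 and day 19.

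Named members were, per class, the 3 with the highest mean CPM and, per comparison, the called member with the largest change; all other members named were chosen after their values were seen. Related genes were a fixed set plus up to 3 called genes of smallest p per list and comparison. The members and lists were chosen with earlier results of these data known.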

Additional observations from a re-analysis of the deposited data

How the results depend on the processing

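For day 19 against day 0, leaving out 1 library at a time gave 5 to 15 members called higher, 0 lower, and a median log2 fold change of 0.51 to 1.28. For day 40 against day 0 it gave 6 to 18 higher, 0 to 1 lower, and a median of 0.77 to 1.40. For day 40 against day 19 it gave 0 higher, 0 lower, and a median of 0.05 to 0.16. Fitting only the compared groups gave 5 members called higher at day 19, with 21 members tested instead of 32. DESeq2 and the fit with no filter each called 1 member lower at day 40, HIST1H2BK; the cause was not tested. With limma voom the medians were 1.02 at day 19 and 1.16 at day 40; the cause was not tested. No filter called 16 higher at day 40, against 11, with 40 members in the fit. With the replicate block by sampling period, 10 members were called higher at day 19, 12 at day 40 and 0 at day 40 against day 19, so the pairing moved no count by over 1.5 times. Under the block HIST1H2BO and HIST1H3H missed the threshold at day 19 (adjusted p = 0.0591 and 0.0574), and HIST1H2AH and HIST1H2BN at day 19 and HIST1H2BJ at day 40 passed it (0.0475, 0.0477 and 0.0397). In 14 of 18 cases a library's deviations correlated best with the library of its own period in another group, a hint from the data and not from the design. Class medians moved by less than the spread between libraries under RLE scaling and total library size. No result among those named changed direction with a call on either side. Low counts limit single members: 5 to 27 of 40 had fewer than 10 counts in a library.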
